A study of Danio rerio with 16 samples.

Results

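The genes described here copy the DNA in S phase or divide it in mitosis. They were taken by symbol from the counts of all genes: 24 replication symbols and 16 mitosis symbols, 40 in all. These 40 symbols matched 41 of the 32520 rows of counts, because rrm2 stands there under both ENSDARG00000020711 and ENSDARG00000078069, so the replication members have 25 rows and the mitosis members 16. RNA came from whole zebrafish embryos at 15 hpf (hours post fertilization), in 16 libraries, 2 for each of 8 genotypes. The genotypes were gfi1 TM (the triple mutant gfi1aa-/-;gfi1b-/-;gfi1ab-/-), the double mutants gfi1aa/1ab DM (gfi1aa-/-;gfi1ab-/-), gfi1b/1ab DM (gfi1b-/-;gfi1ab-/-) and gfi1aa/1b DM (gfi1aa-/-;gfi1b-/-), the single mutants gfi1ab-/-, gfi1aa-/- and gfi1b-/-, and wild-type siblings (WT). The alleles were smu10 of gfi1aa, smu11 of gfi1b and smu12 of gfi1ab. The gfi1 genes encode zinc finger repressors, and the study asked how the 3 paralogs share the control of primitive blood. Single mutants were sorted by genotyping from intercrosses of heterozygous carriers. The parents of gfi1aa/1b DM and gfi1aa/1ab DM were heterozygous for gfi1aa and already lacked gfi1b or gfi1ab, respectively. The parents of gfi1 TM already lacked gfi1aa and gfi1b and were heterozygous for gfi1ab. The crosses of gfi1b/1ab DM and of the WT siblings are not given in the sources used here. Genotype and parents therefore cannot be told apart, and no label says that replicates came from separate clutches, so p-values measure the spread between these libraries, which may be technical. In whole embryos, fewer dividing cells and less RNA per dividing cell cannot be told apart either.

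Before S phase, the origin recognition complex, Cdc6 and Cdt1 load the Mcm2 to Mcm7 ring onto origins, and geminin blocks repeated loading. Cdc45 and Mcm10 help to turn the loaded ring into a working helicase, the primase and DNA polymerase alpha lay primers, and PCNA, placed by replication factor C, holds the polymerases on DNA. Mitosis is driven by cyclin B with Cdk1 and ended by the anaphase promoting complex with Cdc20, which the spindle checkpoint (Bub1, Mad2, Ttk) holds back until all chromosomes are attached. The replication genes are known to be transcribed in late G1 and S phase under E2f factors, and most mitosis genes later, in G2 and M. These roles are known mainly from yeast, frog egg extracts and human cells.

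Levels were expressed as counts per 1000000 gene counts (CPM) after scaling of the libraries by the TMM method, and genes were tested with edgeR at an adjusted p of 0.05. All 41 rows passed the filter on low counts and were detected in every library. Leaving out rrm2, the levels of the members differed between the highest and the lowest library by 1.15-fold (tpx2) to 1.67-fold (mcm7). Total counts on genes ran between 15657371 and 22524501 per library. Library 2 of gfi1 TM stood apart: 77.3% of its reads were on genes and 5.57% mapped to several places, the lowest and the highest shares of the 16, and replicates differed most in gfi1 TM (SD of the log2 difference 0.58, against 0.31 to 0.42 in the other genotypes). The mutated genes were counted in every library (126 to 267 counts of gfi1aa, 47 to 120 of gfi1b and 23 to 74 of gfi1ab). Their counts were not compared by genotype and so were not used to check the genotypes.

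To describe each library by a single value, the log2 CPM of each member was centred on its mean over the 16 libraries and averaged over 23 replication members and over 16 mitosis members, with both rrm2 rows left out. Without gfi1ab, the replicates had replication means of 0.09 with -0.02 (gfi1 TM), 0.01 with 0.04 (gfi1aa/1ab DM), 0.07 with 0.09 (gfi1b/1ab DM) and 0.18 with 0.05 (gfi1ab-/-). With it, they had -0.05 with -0.06 (gfi1aa/1b DM), -0.14 with -0.11 (gfi1aa-/-), -0.02 in both (gfi1b-/-) and -0.08 with -0.03 (WT). Thus 7 of the 8 libraries without gfi1ab lay above all 8 libraries with it, and library 2 of gfi1 TM lay among the others. The mitosis mean did not part the libraries in this way: it ran between -0.04 and 0.14 without gfi1ab and between -0.14 and 0.06 with it. In both groups of genes the libraries of gfi1aa-/- were the lowest, and library 1 of gfi1 TM was the highest for mitosis.

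**Figure D1:**
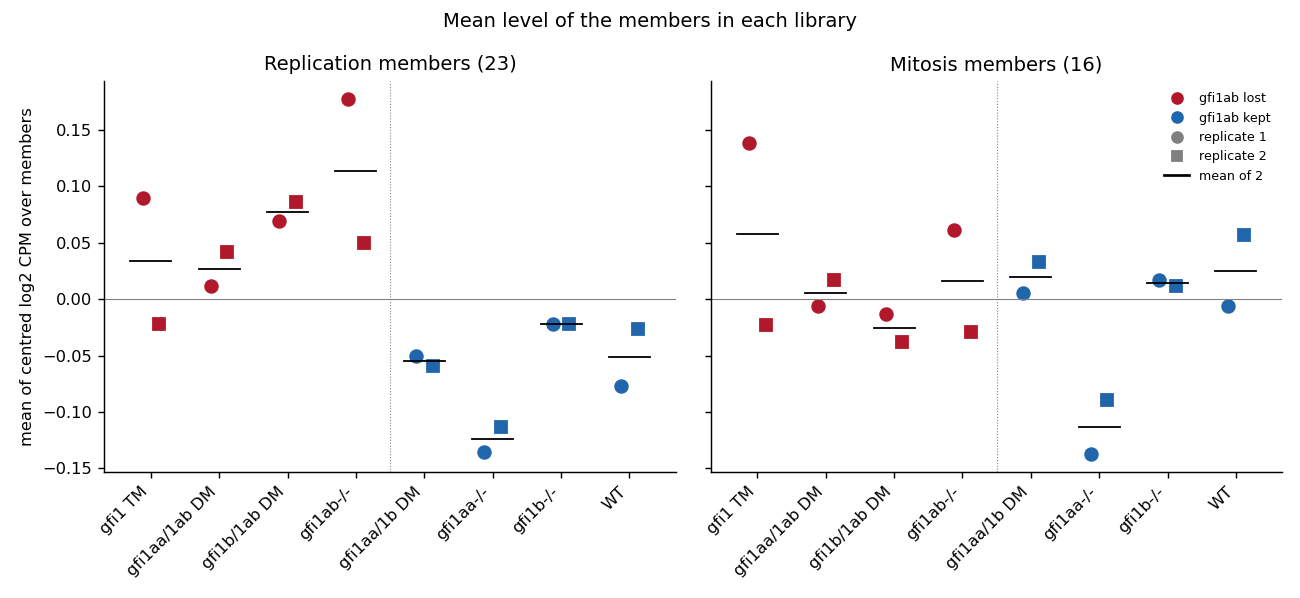
Mean of the centred log2 CPM over 23 replication members (left) and 16 mitosis members (right) in each of the 16 libraries, by genotype; circles and squares are replicates 1 and 2 and black lines their mean. Of the libraries without gfi1ab (red), 7 of 8 lie above all libraries with it (blue) for replication, while for mitosis the colours mix.

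Loss of gfi1ab was compared as the mean of its 4 backgrounds (gfi1 TM against gfi1aa/1b DM, gfi1aa/1ab DM against gfi1aa-/-, gfi1b/1ab DM against gfi1b-/-, and gfi1ab-/- against WT). Of the 25 replication rows, 13 rose without gfi1ab and 0 fell, where 12.7% of the 19903 genes tested rose and 11.2% fell; 16 rows were higher and 0 lower at an unadjusted p under 0.05, and DESeq2 called 12 higher and 0 lower. The log2 differences of the 25 rows were all above 0, with a median of 0.14 against 0.01 over all genes, but that of the ENSDARG00000020711 row of rrm2 was below 0 (-0.51) with 1 mean for each side of 8 libraries, a fit described further on, and both rows of rrm2 are uncertain. Of the 16 mitosis rows, 2 rose (ccna2 and aurkb) and 1 fell (bub1), with a median log2 difference of 0.02. The changes were small: among the 13 replication genes, the largest was 1.21-fold (tyms).

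The MCM ring subunits were represented by 6 members, and 5 of them rose without gfi1ab. mcm6 had 578 CPM in its lowest library without gfi1ab, a median of 621 and a highest value of 677, against 513, 553 and 574 CPM in the libraries with it. mcm5 had 479, 514 and 562 CPM against 433, 458 and 485 CPM. mcm4 had 439, 484 and 537 CPM against 416, 432 and 467 CPM. The 8 libraries without gfi1ab were all above the 8 with it for mcm6, whereas mcm5 and mcm4 overlapped, with 6 and 5 libraries above every library with gfi1ab. mcm2 had 587, 634 and 713 CPM without gfi1ab, against 527, 594 and 636 CPM with it. The log2 fold changes were 0.18 ± 0.03 for mcm6 (SE, adjusted p = 0.000543), 0.17 ± 0.03 for mcm5 (adjusted p = 0.00137), 0.16 ± 0.03 for mcm4 (adjusted p = 0.00217) and 0.14 ± 0.03 for mcm2 (adjusted p = 0.00644). mcm3 rose by the least, 0.08 ± 0.03 (adjusted p = 0.0388), a call that was lost without any of 14 of the 16 libraries. mcm7 was the exception, with 0.06 ± 0.06 (adjusted p = 0.502) and the widest spread between replicates among the replication members other than rrm2 (SD of log2 CPM within genotypes 0.14).

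At the fork, all 4 members rose. pcna, the sliding clamp, had 816, 909 and 951 CPM without gfi1ab (lowest, median and highest library), against 714, 767 and 819 CPM with it. pola1, the catalytic subunit of DNA polymerase alpha, had 165, 178 and 195 CPM against 153, 159 and 165 CPM. rfc4, a subunit of the clamp loader, had 64.4, 70.8 and 73.9 CPM against 56.9, 60.5 and 65.8 CPM. Only pola1 had no overlap between the 8 libraries of each side. Its lowest library without gfi1ab had 165.4 CPM and its highest with gfi1ab 164.7 CPM. pcna overlapped through library 2 of gfi1 TM. prim1, the small primase subunit, had 46.3, 51.1 and 56.6 CPM without gfi1ab, against 42.3, 45.4 and 53.5 CPM with it. The log2 fold changes were 0.24 ± 0.04 for pcna (adjusted p = 0.000555), 0.17 ± 0.03 for pola1 (adjusted p = 0.000754), 0.19 ± 0.04 for rfc4 (adjusted p = 0.00311) and 0.16 ± 0.04 for prim1 (adjusted p = 0.0161). Across all genes, 0.432% had every library without gfi1ab above every library with it, and mcm6 and pola1 were the 2 members among them.

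Of the nucleotide supply, tyms, the thymidylate synthase, had 46.8, 49.6 and 55.6 CPM without gfi1ab against 37.2, 41.8 and 47.2 CPM with it. rrm1, the large subunit of ribonucleotide reductase, had 456, 486 and 507 CPM against 392, 453 and 469 CPM. The tyms levels split further among the libraries with gfi1ab: gfi1aa/1b DM and gfi1aa-/- were at 37.2 to 40.1 CPM, and gfi1b-/- and WT at 43.5 to 47.2 CPM. The log2 fold changes were 0.27 ± 0.04 for tyms (adjusted p = 0.000406) and 0.13 ± 0.03 for rrm1 (adjusted p = 0.00886). Among the S phase kinases, cdk2 had 50.5, 57.4 and 65.4 CPM against 44.1, 50.4 and 55.5 CPM, a log2 fold change of 0.20 ± 0.05 (adjusted p = 0.00669). Its partner cyclin E2 (ccne2) rose by 0.18 ± 0.05 (adjusted p = 0.0235), and this call was lost without any of 7 libraries. chek1, the kinase of the replication checkpoint, was not called (0.06 ± 0.04, adjusted p = 0.358).

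The members that choose and license origins were not called on loss of gfi1ab. The log2 differences were 0.07 ± 0.03 for orc1, 0.07 ± 0.05 for orc2, 0.06 ± 0.05 for orc3, 0.10 ± 0.04 for cdc6, 0.10 ± 0.04 for cdt1 and 0.04 ± 0.04 for gmnn, the gene of geminin, with adjusted p between 0.0919 and 0.548. Nor were mcm10 (0.06 ± 0.04, adjusted p = 0.368) and cdc45 (0.04 ± 0.05, adjusted p = 0.604), which help to activate the helicase. The 13 called genes were thus the MCM subunits apart from mcm7, the fork genes, tyms, rrm1, ccne2 and cdk2. However, cdc6 and cdt1 differed by more than mcm3, which was called. Against WT, cdt1 was called higher in gfi1ab-/- and gfi1 TM, but also in gfi1aa/1b DM, which keeps gfi1ab. In genotype means cdt1 was higher without gfi1ab in 2 of 4 backgrounds. Whether the licensing members differ from the called ones was not tested.

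**Figure D2:**
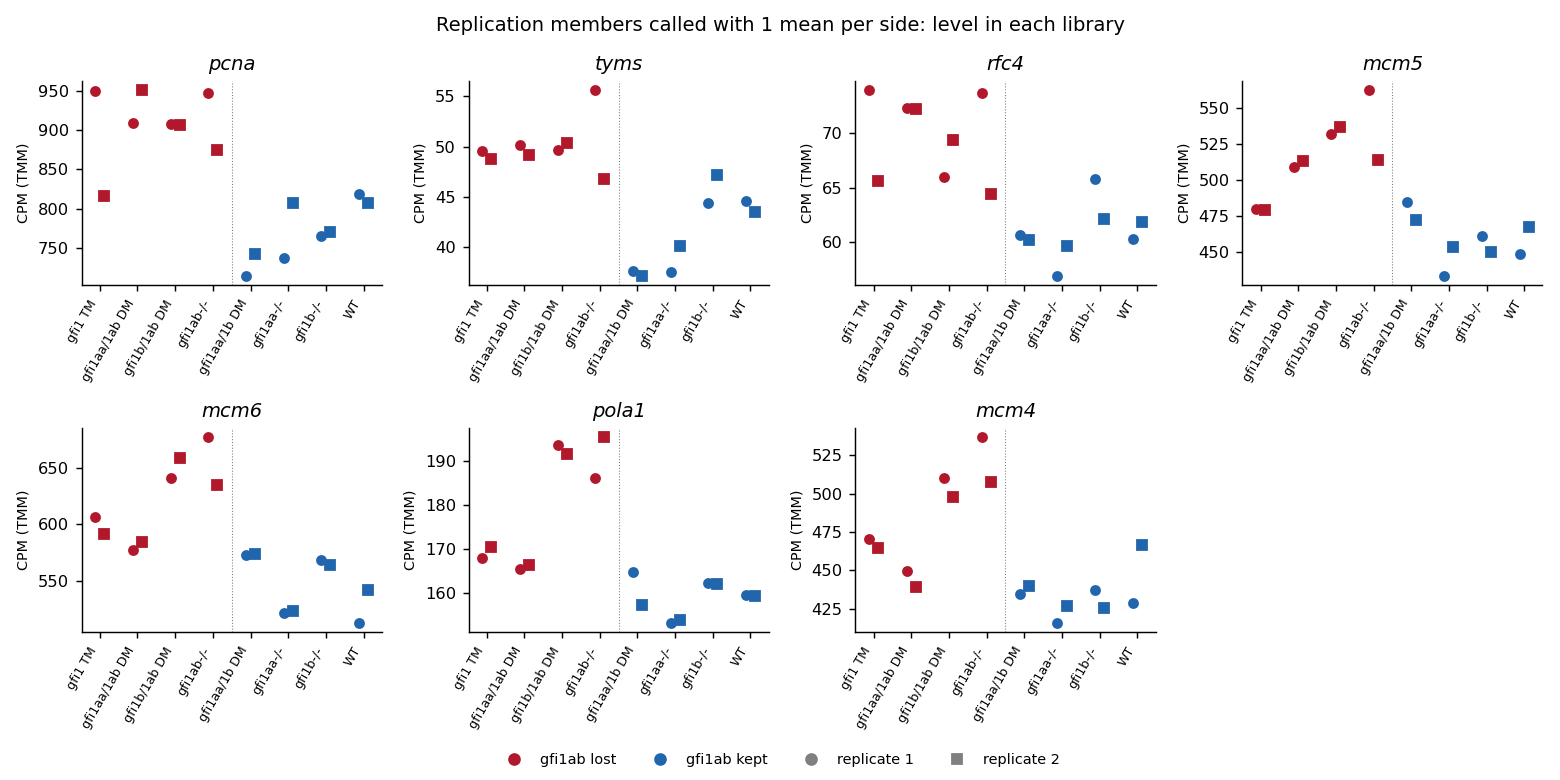
Level (CPM, TMM library sizes; axes do not start at 0) of the 7 replication members that were also called with 1 mean per side of 8 libraries, in each library by genotype; red marks genotypes without gfi1ab, blue those with it, circles replicate 1 and squares replicate 2. mcm6 and pola1 do not overlap between the sides, and the other 5 do.

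Among the mitosis members the sides overlapped for every gene. Cyclin A2 (ccna2), which works in S phase and at the entry to mitosis, rose by 0.10 ± 0.03 (adjusted p = 0.0419), and aurkb, the kinase of the chromosomal passenger complex, by 0.13 ± 0.05 (adjusted p = 0.0483), but each call was lost without any of 13 of the 16 libraries and with DESeq2. birc5a, the survivin of the same complex, had 0.17 ± 0.06 (adjusted p = 0.0546). bub1, a kinase of the spindle checkpoint, had 151, 179 and 202 CPM without gfi1ab (lowest, median and highest library), against 155, 202 and 222 CPM with it, and fell by 0.13 ± 0.03 on the log2 scale (adjusted p = 0.00788). The other 12 had log2 differences between -0.08 (cenpe) and 0.11 (mad2l1), with adjusted p of 0.0714 or more. Among them were the mitotic kinase cdk1 (0.07) and its cyclin ccnb1 (-0.06), the kinases aurka (0.01), plk1 (-0.01) and ttk (0.02), the spindle proteins kif11 (0.01) and tpx2 (0.01), the activator of the anaphase promoting complex cdc20 (0.03), and the chromosome proteins mki67 (0.04) and top2a (0.03).

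Genes of the same processes outside the members were counted from separate lists. These lists were chosen with earlier results of these data known, so their counts are not an independent test. Of 47 other replication genes, 25 rose without gfi1ab and 1 fell (ccne1), with a median log2 difference of 0.13. Over all genes, 12.7% rose and 11.2% fell. fen1, the flap nuclease of Okazaki fragments, had 133, 156 and 172 CPM without gfi1ab against 121, 133 and 134 CPM with it (log2 fold change 0.26 ± 0.04, adjusted p = 0.000365). gins2, a part of the active helicase, rose by 0.29 ± 0.05 (adjusted p = 0.000739) and dhfr, the dihydrofolate reductase, by 0.27 ± 0.04 (adjusted p = 0.000816). ccne1, the other cyclin E gene, had 20.3, 22.9 and 25.6 CPM against 23.5, 25.7 and 26.6 CPM, the opposite of ccne2 (-0.14 ± 0.04, adjusted p = 0.0247). Of 55 other mitosis genes, with a median log2 difference of 0.02, 5 rose (among them fbxo5, cks2 and zwilch, by 0.16, 0.25 and 0.25) and 3 fell: anln by 0.12, kif14 by 0.14 and foxm1, a transcription factor of G2 genes, by 0.16. The 5 became 0 without library 2 of gfi1b-/- and 10 without library 2 of gfi1 TM. The list named for cyclin D, CDK inhibitor and RB genes also held cdk4, cdk6, ccng1, ccng2 and btg2, which are in none of these classes. Of its 19 genes tested, 3 rose and 0 fell. In this list DESeq2 called 3 higher and 1 lower, and 2 were lower at an unadjusted p under 0.05. cdkn1a, the p21 inhibitor of Cdk2, had 3.93, 6.004 and 8.75 CPM without gfi1ab against 3.19, 4.35 and 5.66 CPM with it (0.44 ± 0.10, adjusted p = 0.0045), ccng1 rose by 0.40 ± 0.06 (adjusted p = 0.000431) and the G1 cyclin ccnd1 by 0.10 ± 0.03 (adjusted p = 0.0203).

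In genotype means, 13 of the 23 replication members other than rrm2 were higher without gfi1ab in all 4 backgrounds, 5 in 3 and 5 in 2. By background, 19 of 23 were higher in gfi1 TM than in gfi1aa/1b DM, 20 were higher in gfi1aa/1ab DM than in gfi1aa-/-, 17 in gfi1b/1ab DM than in gfi1b-/-, and 21 in gfi1ab-/- than in WT, with median log2 differences of 0.07, 0.15, 0.13 and 0.16. Of the 16 mitosis members, 12, 13, 7 and 7 were higher in the same 4 pairs. The members share these libraries, so their signs are not separate observations, and the same counts were not made over all genes. With 1 library left out, 10 to 15 replication rows were called, with 0 lower, and 15 without library 2 of gfi1 TM. The called mitosis members numbered 1 to 6, and 6 without that library (5 higher and 1 lower).

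With 1 mean for each side of 8 libraries, so that the differences among the 4 genotypes of a side count as spread, 2.95% of all genes rose and 2.32% fell. In this fit 7 replication members rose (pcna, tyms, rfc4, mcm5, mcm6, pola1 and mcm4) and 0 fell, 11 of the 47 other replication genes rose, and 0 of the 16 mitosis members and 0 of the 55 other mitosis genes were called. Among the cyclin D, CDK inhibitor and RB genes, 1 rose and 0 fell. At an unadjusted p under 0.05 in this fit, 13 replication members were higher and 0 lower, 3 mitosis members higher and 0 lower, and 6 other mitosis genes higher and 4 lower (DESeq2 was not run with this design). Without TMM scaling, an alternative chosen after the data were seen, 23 of the 25 replication rows stayed above 0 and 10 were called, while 5 of the 16 mitosis rows were above 0 and 2 fell; the calls over all genes became 1843 higher and 3139 lower, in place of 2527 and 2234. The 25 higher calls among the other replication genes dropped to 15 without library 1 of gfi1aa-/- and to 16 without its library 2, library 1 of gfi1b-/- or library 2 of gfi1b/1ab DM.

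Markers of other tissues were also called on this loss, where 12.7% of all genes rose and 11.2% fell. Of 13 muscle markers, 8 rose and 1 fell (summed level 1690 to 2167 CPM without gfi1ab, 1639 to 2063 CPM with it), and of 5 notochord markers 4 fell (618 to 1578 CPM, against 925 to 1647 CPM). Of 6 germ cell markers 3 rose (24.1 to 54.4 CPM, against 18.1 to 39.2 CPM), of 8 skin and hatching gland rows 5 rose (15420 to 20470 CPM, against 13190 to 18430 CPM), and of 7 neural progenitor markers 2 fell (989 to 1109 CPM, against 1017 to 1163 CPM). Of 6 endothelial markers 4 rose (112 to 215 CPM without gfi1ab, 110 to 170.2 CPM with it), and of 7 erythroid markers 3 rose (14.9 to 96.3 CPM, against 15.0 to 86.3 CPM). The endothelial sum was 201.2 and 189.8 CPM in gfi1aa/1ab DM (gfi1aa-/- 165.4 and 170.2) and 212.4 and 214.8 CPM in gfi1 TM (gfi1aa/1b DM 166.6 and 164.2). With gfi1aa present it was 118.1 and 125.7 CPM in gfi1ab-/- (WT 121.4 and 123.1) and 112.2 and 124.1 CPM in gfi1b/1ab DM (gfi1b-/- 112.2 and 110.0). Of 6 neuron markers 2 rose and 1 fell (223 to 258 CPM, against 247 to 263 CPM). Only 3 of 7 myeloid markers passed the filter on low counts, and 1 of these fell (99.7 to 188.5 CPM, against 100.3 to 186 CPM). These summed levels overlapped between the sides. With 1 mean for each side, 2 muscle markers, 1 germ cell marker and 1 neuron marker rose, 1 myeloid marker fell, and none of the other 5 lists had a call (5 of their markers were higher and 4 lower at an unadjusted p under 0.05). Their part in the replication result was not tested.

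**Figure D3:**
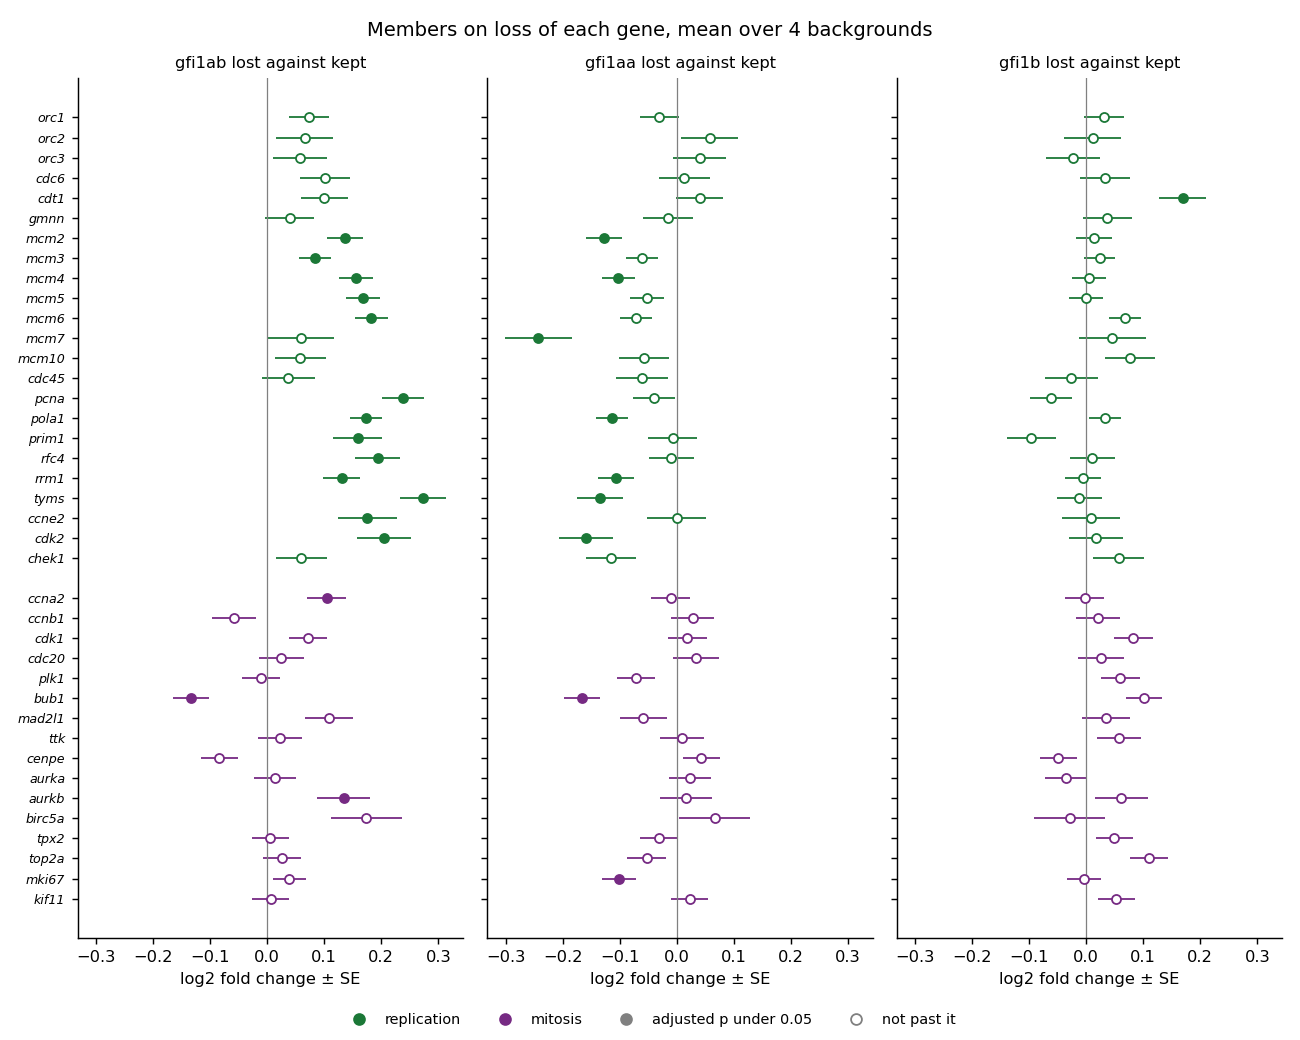
Log2 fold change with its SE of the 39 members other than rrm2 on loss of gfi1ab, gfi1aa and gfi1b, each as the mean over 4 backgrounds; green marks replication, purple mitosis, and filled circles an adjusted p under 0.05 in edgeR. All 23 replication members lie right of 0 for gfi1ab, 18 lie left of 0 for gfi1aa, and cdt1 is the single filled circle for gfi1b.

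On loss of gfi1aa, also the mean of its 4 backgrounds, the replication genes that changed were lower. Of the 25 rows, 8 fell and 0 rose, where 7.47% of all genes fell and 7.08% rose; 11 rows were lower and 0 higher at an unadjusted p under 0.05, and DESeq2 called 7 lower and 0 higher. The 8 were mcm7, mcm2, mcm4, pola1, cdk2, tyms, rrm1 and the ENSDARG00000020711 row of rrm2. The median log2 difference was -0.06 against 0.00 over all genes. Of the 16 mitosis rows, 2 fell (bub1 and mki67) and 0 rose (0 higher at an unadjusted p under 0.05, and 0 with DESeq2), with a median of 0.01.

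mcm7 had 523, 604 and 692 CPM without gfi1aa (lowest, median and highest library), against 598, 701 and 872 CPM with it. mcm2 had 527, 594 and 630 CPM against 584, 637 and 713 CPM, and pola1 had 153, 165 and 171 CPM against 159, 174 and 195 CPM. For all 3, every library without gfi1aa was below the median of the libraries with it. They fell by 0.24 ± 0.06 for mcm7 (log2, SE, adjusted p = 0.0129), 0.13 ± 0.03 for mcm2 (adjusted p = 0.0145) and 0.11 ± 0.03 for pola1 (adjusted p = 0.0152). mcm4 had 416, 439.5 and 470.3 CPM against 426, 482 and 537 CPM and fell by 0.10 ± 0.03 (adjusted p = 0.0322). tyms had 37.2, 44.5 and 50.2 CPM against 43.5, 47.0 and 55.6 CPM (-0.13 ± 0.04, adjusted p = 0.0368). Its means were 38.86 CPM in gfi1aa-/- (WT 44.05) and 37.39 CPM in gfi1aa/1b DM (gfi1b-/- 45.78). With gfi1ab lost they were closer, 49.71 CPM in gfi1aa/1ab DM (gfi1ab-/- 51.23) and 49.17 CPM in gfi1 TM (gfi1b/1ab DM 50.02). However, the interaction of gfi1aa with gfi1ab, a test described further on, was not called for tyms. In 1 of 4 backgrounds mcm7 was higher without gfi1aa, with means of 667.5 CPM in gfi1aa/1b DM and 640.7 CPM in gfi1b-/-. mcm7, mcm2, pola1, mcm4 and tyms overlapped between the sides, as did cdk2 and rrm1. cdk2 had 44.1, 49.8 and 61.5 CPM without gfi1aa against 51.6, 55.7 and 65.4 CPM with it (-0.16 ± 0.05, adjusted p = 0.0368), and rrm1 had 392, 452 and 507 CPM against 458, 468 and 507 CPM (-0.11 ± 0.03, adjusted p = 0.0373). The ENSDARG00000020711 row of rrm2 had 0.517, 108 and 202 CPM against 45.6, 122 and 376 CPM (-2.06 ± 0.55, adjusted p = 0.0224) and is taken up with the other row. The calls of rrm1, cdk2, tyms and mcm4 were lost without any of 8 to 11 libraries.

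mki67, the Ki-67 coat protein of mitotic chromosomes, was the only member whose 8 libraries without gfi1aa all lay below the 8 with it, as did 0.226% of all genes. It had 854, 879 and 932 CPM without gfi1aa, against 933, 946 and 984 CPM with it, so that the sides were parted by about 1 CPM. It fell by 0.10 ± 0.03 on the log2 scale (adjusted p = 0.0326), a call lost without any of 8 libraries. bub1 had 151, 169.6 and 222 CPM without gfi1aa, against 175, 201 and 215 CPM with it, and fell by 0.17 ± 0.03 (adjusted p = 0.00325). The sides overlapped, and gfi1aa/1b DM had the highest mean level of all genotypes.

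Of the 47 other replication genes, 7 fell on loss of gfi1aa and 1 rose (tipin), where 7.47% of all genes fell and 7.08% rose. The lowest adjusted p among those that fell were for chaf1b, of the chromatin assembly factor (-0.20 ± 0.03, adjusted p = 0.00179), pole, the leading strand polymerase (-0.13 ± 0.03, adjusted p = 0.0146), and chaf1a (-0.12 ± 0.03, adjusted p = 0.025). Of the 55 other mitosis genes, 8 fell and 0 rose (2 higher at an unadjusted p under 0.05, 0 with DESeq2). mybl2b, a transcription factor of G2 genes, had 83.7, 94.8 and 103 CPM without gfi1aa against 101, 104 and 116 CPM with it (-0.17 ± 0.03, adjusted p = 0.00199), and ckap5 and smc2 fell by 0.15 and 0.11. cdkn1a had 3.77, 6.21 and 8.75 CPM without gfi1aa against 3.19, 4.39 and 5.25 CPM with it (0.40 ± 0.10, adjusted p = 0.0124). ccng1 had 350, 418 and 617 CPM against 317, 399 and 482 CPM and also rose (0.23 ± 0.06, adjusted p = 0.0169), and btg2 fell by 0.12. For cdkn1a and ccng1 the highest library lacked both gfi1aa and gfi1ab. With 1 mean for each side of 8 libraries, 0 of the cyclin D, CDK inhibitor and RB genes were called. With 1 library left out, 3 (without library 2 of gfi1aa-/-) to 7 of the other replication genes and 3 (without library 1 of gfi1aa/1b DM) to 10 of the other mitosis genes fell.

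With 1 mean for each side of 8 libraries, where 0.784% of all genes rose and 0.568% fell, 0 of the 41 rows were called, and 0 of the other replication and mitosis genes (0 replication members higher and 6 lower, and 0 mitosis members higher and 1 lower, at an unadjusted p under 0.05). The replication count was 2 without library 2 of gfi1aa/1b DM, 3 without its library 1, 4 without library 2 of gfi1b-/-, library 1 of gfi1ab-/- or library 2 of gfi1aa/1ab DM, and 5 without library 1 of gfi1aa-/-, gfi1b-/- or gfi1aa/1ab DM, either library of gfi1b/1ab DM or library 2 of WT. mcm7 and mcm2 kept their call without any single library. By background, 19 of the 23 replication members were lower in gfi1aa-/- than in WT, 16 in gfi1aa/1ab DM than in gfi1ab-/-, 14 in gfi1 TM than in gfi1b/1ab DM and 13 were lower in gfi1aa/1b DM than in gfi1b-/-. These signs come from shared libraries, so they are not separate observations, and they were not counted over all genes. Blood and vessel markers moved with this loss: all 7 erythroid markers fell (summed level 14.9 to 26.1 CPM without gfi1aa, 64.0 to 96.3 CPM with it) and all 6 endothelial markers rose (164 to 215 CPM, against 110 to 126 CPM). The study showed these same genes, from these libraries, as lower (erythroid) and higher (endothelial) in mutants without gfi1aa, so their directions were known beforehand. Over all genes, 7.47% fell and 7.08% rose on this loss. Of 5 notochord markers 3 fell (618 to 1465 CPM without gfi1aa, 1158 to 1647 CPM with it), of 8 skin and hatching gland rows 2 rose and 2 fell (13190 to 20470 CPM, against 13690 to 18300 CPM), of 3 myeloid markers 1 rose and 1 fell (109 to 188.5 CPM, against 99.7 to 164 CPM), and of 6 neuron markers 2 rose (223 to 258 CPM, against 239 to 263 CPM). Of 13 muscle markers 1 fell (1639 to 2048 CPM, against 1815 to 2167 CPM), as did 1 neural progenitor marker of 7 (1017 to 1109 CPM, against 989 to 1163 CPM) and 1 germ cell marker of 6 (22.3 to 54.4 CPM, against 18.1 to 42.7 CPM). The erythroid and endothelial sums did not overlap between the sides, and the other sums did. With 1 mean for each side, the 7 erythroid markers fell and the 6 endothelial markers rose, 1 skin and hatching gland row rose, 1 germ cell marker fell, and none of the other 5 lists had a call (3 of their markers were higher and 3 lower at an unadjusted p under 0.05). Their part in the values of the members was not tested.

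On loss of gfi1b, 1 of the 25 replication rows rose and 0 fell, where 4.71% of all genes rose and 5.03% fell (2 rows were higher and 2 lower at an unadjusted p under 0.05, and DESeq2 called 1 higher and 0 lower). The gene was cdt1, the licensing factor that brings the MCM ring to origins, with 65.9, 76.8 and 86.1 CPM without gfi1b (lowest, median and highest library), against 60.4, 66.4 and 85.8 CPM with it. The sides overlapped, and cdt1 rose by 0.17 ± 0.04 on the log2 scale (adjusted p = 0.0188). In genotype means it was higher without gfi1b in 3 of 4 backgrounds. In the other it was lower, 69.95 CPM in gfi1b/1ab DM against 80.61 CPM in gfi1ab-/-. The call was lost without library 1 of gfi1b-/- or library 1 of gfi1aa/1b DM and with 1 mean for each side, where 0.261% of all genes rose and 0.372% fell. Of the 16 mitosis rows 0 were called (3 higher and 0 lower at an unadjusted p under 0.05, and DESeq2 called 1 higher), the nearest being top2a (0.11 ± 0.03, adjusted p = 0.0521) and bub1 (0.10 ± 0.03, adjusted p = 0.058). Of the 55 other mitosis genes, 6 rose and 1 fell: kif20a rose by 0.19 ± 0.03 (adjusted p = 0.00143), foxm1 by 0.22 ± 0.05 (adjusted p = 0.0104) and knstrn by 0.31 ± 0.08 (adjusted p = 0.0196), and pttg1, the securin, fell by 0.28 ± 0.06 (adjusted p = 0.0132). That count was between 2 (without library 2 of gfi1b-/-) and 10 (without library 2 of gfi1 TM) higher with 1 library left out, and with 1 mean for each side 0 were called (8 higher and 1 lower at an unadjusted p under 0.05). Of the 47 other replication genes, pold3 rose by 0.14 ± 0.03 (adjusted p = 0.0156), and pola2, the B subunit of DNA polymerase alpha, fell by 0.15 ± 0.03 (adjusted p = 0.00906) and dscc1 by 0.22 ± 0.06 (adjusted p = 0.0384).

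The single genotypes were each compared with WT over 2 libraries a group, and these 7 comparisons share the 2 WT libraries. Leaving out rrm2, few members were called. In gfi1ab-/-, mcm6, pola1, cdt1, mcm5 and mcm4 rose, and with rrm2 6 of 25 replication rows rose and 0 fell (1 lower at an unadjusted p under 0.05, and 0 with DESeq2), where 5.46% of all genes rose and 4.83% fell. In gfi1b/1ab DM, mcm6, pola1 and mcm5 rose, 4 rows with rrm2 (5.76% of all genes rose and 4.84% fell). In gfi1 TM, mcm6 and cdt1 rose, 3 rows with rrm2 (7.16% of all genes rose and 5.95% fell). In gfi1aa/1ab DM, rfc4 rose, 2 rows with rrm2, where 11.1% of all genes rose and 11.9% fell; without TMM these became 1495 genes higher and 3173 lower, in place of 2204 and 2361, and rfc4 was not called. In gfi1aa/1b DM cdt1 rose and rrm1 fell, 2 rows in each direction with rrm2 (4.96% of all genes rose and 4.73% fell). In gfi1aa-/- mcm2 fell, 1 of 25 rows, where 5.66% of all genes fell and 6.47% rose. In gfi1b-/- no replication member other than the ENSDARG00000078069 row of rrm2 was called (4 rows were higher and 0 lower at an unadjusted p under 0.05, and DESeq2 called 0), where 4.63% of all genes rose and 4.83% fell.

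Apart from rrm2, the replication members called in more than 1 mutant were mcm6, pola1, mcm5 and cdt1. mcm6 had 677 and 635 CPM in gfi1ab-/-, 641 and 659 CPM in gfi1b/1ab DM and 607 and 592 CPM in gfi1 TM, against 513 and 542 CPM in WT. The log2 fold changes were 0.31 ± 0.06 (adjusted p = 0.00234), 0.30 ± 0.06 (adjusted p = 0.00306) and 0.18 ± 0.06 (adjusted p = 0.0428), and the last was lost without any of 13 libraries. pola1 had 186 and 195 CPM in gfi1ab-/- and 194 and 192 CPM in gfi1b/1ab DM, against 159.6 and 159.2 CPM in WT (0.26 ± 0.06, adjusted p = 0.00828, and 0.27 ± 0.06, adjusted p = 0.00575). mcm6 and pola1 were above both WT libraries in each of these, and pola1 lost its call without library 2 of gfi1ab-/- or either library of WT (gfi1ab-/-) and without library 1 of gfi1b/1ab DM (gfi1b/1ab DM). mcm5 had 562 and 514 CPM in gfi1ab-/- and 532 and 537 CPM in gfi1b/1ab DM, against 449 and 467 CPM in WT, with log2 fold changes of 0.23 ± 0.06 (adjusted p = 0.0206) and 0.22 ± 0.06 (adjusted p = 0.0257) that both lost their call without either library of WT or library 1 of the mutant, and in gfi1b/1ab DM also without its library 2. cdt1 had 83.2 and 77.0 CPM in gfi1 TM, 85.8 and 75.4 CPM in gfi1ab-/- and 86.1 and 81.2 CPM in gfi1aa/1b DM, against 60.4 and 64.2 CPM in WT, with log2 fold changes of 0.36 ± 0.08, 0.37 ± 0.08 and 0.43 ± 0.08 (adjusted p = 0.0109, 0.00959 and 0.00467). These 3 calls of cdt1 were lost without library 1 of WT, and without library 1 of the mutant in each case. mcm2 had 527 and 531 CPM in gfi1aa-/- against 614 and 636 CPM in WT and fell by 0.24 ± 0.06 (adjusted p = 0.0205), a call lost without any of these 4 libraries. The other 3 were each called in a single mutant. mcm4 had 537 and 508 CPM in gfi1ab-/- against 428 and 467 CPM in WT (0.22 ± 0.06, adjusted p = 0.0256, lost without library 1 of either). rfc4 had 72.3 and 72.2 CPM in gfi1aa/1ab DM against 60.3 and 61.9 CPM in WT (0.24 ± 0.08, adjusted p = 0.0377), and rrm1 had 392 and 410.3 CPM in gfi1aa/1b DM against 465 and 469 CPM in WT (-0.22 ± 0.06, adjusted p = 0.0432), calls lost without any of 10 and 12 libraries.

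The mitosis members of gfi1aa-/- were all on the low side. The log2 differences from WT of all 16 were below 0, with a median of -0.12 against 0.00 over all genes, and they stayed below 0 without TMM scaling. The members share these libraries, so their signs are not separate observations. Nor was this limited to mitosis: in genotype means, only 4 of the 23 replication members other than rrm2 were higher in gfi1aa-/- than in WT. Of the 16 mitosis members, bub1 fell, 4 were lower at an unadjusted p under 0.05, and 5.66% of all genes fell. In gfi1aa/1b DM, which also lacks gfi1b, 8 of the 16 were above 0 and 0 were called (1 lower at an unadjusted p under 0.05, and DESeq2 called 0). In the other 5 mutants 5 to 11 of the 16 were above 0 relative to WT.

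Most of the calls among mitosis members were of bub1, top2a and cenpe. bub1 had 151 and 151 CPM in gfi1aa/1ab DM and 166 and 155 CPM in gfi1aa-/-, against 205 and 215 CPM in WT. It had 173 and 184 CPM in gfi1 TM and 186 and 175 CPM in gfi1b/1ab DM. These 4 genotypes were below both WT libraries, with log2 fold changes of -0.47 ± 0.06 in gfi1aa/1ab DM (adjusted p = 0.000214), -0.39 ± 0.06 in gfi1aa-/- (adjusted p = 0.00107), -0.23 ± 0.06 in gfi1 TM (adjusted p = 0.0264) and -0.22 ± 0.06 in gfi1b/1ab DM (adjusted p = 0.0393). The first 2 held without any single library, whereas the call in gfi1 TM was lost without 3 libraries (library 1 of gfi1 TM and either of WT) and that in gfi1b/1ab DM without either library of gfi1b/1ab DM, gfi1b-/-, gfi1aa/1b DM or WT. In gfi1aa/1b DM (222 and 213 CPM), gfi1ab-/- (202 and 202 CPM) and gfi1b-/- (199 and 191 CPM) bub1 was not called. In order of genotype means, bub1 went up through gfi1aa/1ab DM, gfi1aa-/-, gfi1 TM, gfi1b/1ab DM, gfi1b-/-, gfi1ab-/-, WT and gfi1aa/1b DM, and of neighbours in this order gfi1 TM overlapped gfi1b/1ab DM, and WT overlapped gfi1aa/1b DM.

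top2a, the topoisomerase that untangles chromosomes, had 476 and 499.5 CPM in gfi1b-/- and 493.2 and 431.6 CPM in gfi1 TM, against 398 and 399 CPM in WT. It rose by 0.29 ± 0.07 in gfi1b-/- (adjusted p = 0.0129, a call lost without any of its 4 libraries) and by 0.22 ± 0.07 in gfi1 TM (adjusted p = 0.047), and the second call was lost without any of 13 libraries. In the other genotypes without gfi1b it was not called against WT: top2a had 391 and 400.4 CPM in gfi1b/1ab DM and 397 and 408 CPM in gfi1aa/1b DM. Against gfi1b-/-, top2a fell in gfi1aa/1b DM by 0.28 ± 0.07 (adjusted p = 0.0293), a call lost without any of those 4 libraries. cenpe, a kinetochore motor, had its 2 highest levels in WT (399 and 431 CPM), and all 14 mutant libraries were lower, between 336 and 389.5 CPM. It fell by 0.28 ± 0.06 in gfi1b/1ab DM (adjusted p = 0.0109), 0.27 ± 0.06 in gfi1ab-/- (adjusted p = 0.0144) and 0.26 ± 0.06 in gfi1b-/- (adjusted p = 0.0198), and was not called in the other 4. All 3 calls were lost without library 2 of WT, the highest of the 16. Over all genes, 4.17% had every mutant library below both WT libraries, as did cenpe and the ENSDARG00000020711 row of rrm2 among the members, and 4.94% had every mutant library above both, as did the ENSDARG00000078069 row of rrm2.

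**Figure D4:**
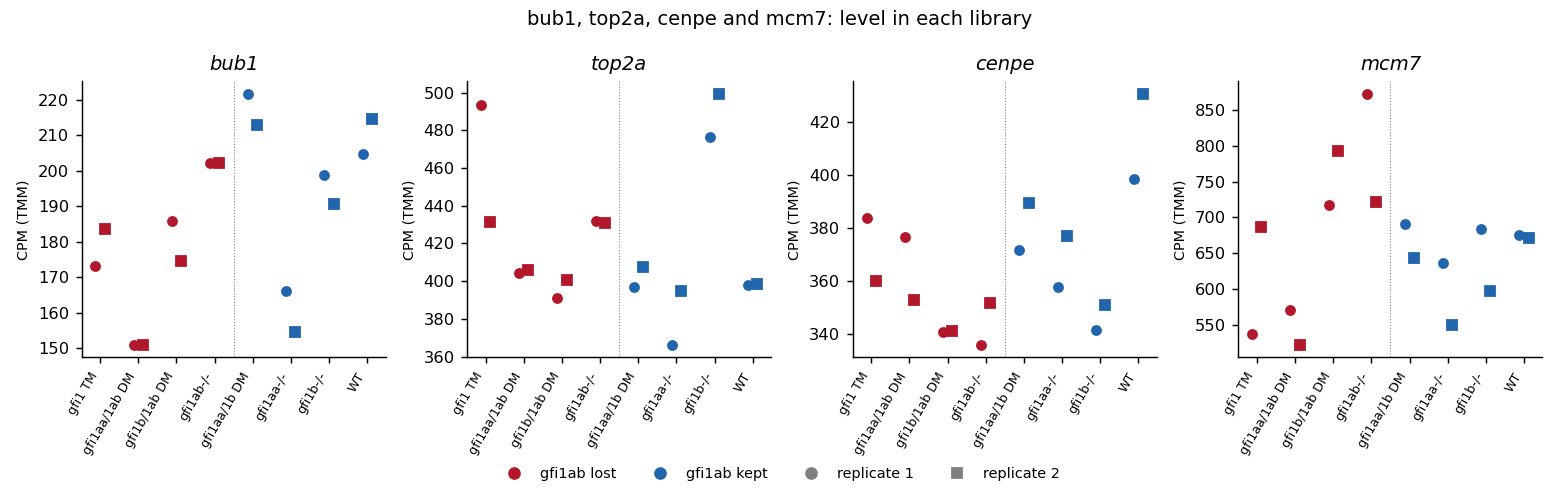
Level (CPM, TMM library sizes; axes do not start at 0) of bub1, top2a, cenpe and mcm7 in each library by genotype; red marks genotypes without gfi1ab, blue those with it, circles replicate 1 and squares replicate 2. bub1 is lowest in gfi1aa/1ab DM and gfi1aa-/-, top2a highest in gfi1b-/- and in replicate 1 of gfi1 TM, cenpe highest in WT, and mcm7 varies between replicates.

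Loss of gfi1aa was also compared within the mutant backgrounds. In gfi1aa/1ab DM against gfi1ab-/-, mcm7 had 571 and 523 CPM against 872 and 721 CPM and fell by 0.54 ± 0.12 (adjusted p = 0.00752), the largest fold change of a member other than rrm2 in any of the 15 comparisons, and lost without library 2 of gfi1aa/1ab DM or library 1 of gfi1ab-/-. mcm4 had 450 and 439 CPM against 537 and 508 CPM (-0.23 ± 0.06, adjusted p = 0.0183), pola1 had 165 and 166 CPM against 186 and 195 CPM (-0.20 ± 0.06, adjusted p = 0.0288), and bub1 had 151 and 151 CPM against 202 and 202 CPM (-0.42 ± 0.06, adjusted p = 0.000834). bub1 held without any single library, whereas mcm4 and pola1 lost their call without either library of gfi1aa/1ab DM and without library 1 (mcm4) or library 2 (pola1) of gfi1ab-/-. These were 3 of 25 replication rows and 1 of 16 mitosis rows lower, where 8.24% of all genes fell, and 0 higher, where 5.88% rose (0 replication rows and 1 mitosis row higher at an unadjusted p under 0.05, and DESeq2 called 0 higher). In gfi1aa/1b DM against gfi1b-/-, top2a and the ENSDARG00000020711 row of rrm2 fell, where 2.25% of all genes fell and 2.42% rose; the calls over all genes were 482 higher and 448 lower, and 400 higher and 570 lower without TMM. In gfi1 TM against gfi1b/1ab DM, 0 of the 41 rows were called, where 1.96% of all genes were (8 rows at an unadjusted p under 0.05, 6 of replication and 2 of mitosis, and 0 with DESeq2).

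Interactions asked whether the change on loss of gfi1aa differed with gfi1b or with gfi1ab, each averaged over both states of the remaining gene. For gfi1b, bub1 was called (log2 0.48 ± 0.06, adjusted p = 0.000867), where 2.19% of all genes had a positive and 1.83% a negative interaction: with gfi1b present its level was lower without gfi1aa (gfi1aa/1ab DM against gfi1ab-/- and gfi1aa-/- against WT), and with gfi1b lost it was not called in either background (gfi1 TM against gfi1b/1ab DM, and gfi1aa/1b DM against gfi1b-/- at 0.16 ± 0.06, adjusted p = 0.188). This call held without any single library and under every alternative tried. The other 15 mitosis members also had interactions above 0, none of them called. The median over the 16 was 0.09, against -0.001 over all genes, and 13 of the 16 were above 0 without TMM scaling. Of the 25 replication rows 0 were called (1 positive and 1 negative at an unadjusted p under 0.05, and DESeq2 called 0). For gfi1ab, orc1 had a negative interaction (-0.25 ± 0.07, adjusted p = 0.0374) and top2a a positive interaction (0.24 ± 0.07, adjusted p = 0.0387), where 4.81% and 3.79% of all genes had them, and both were lost with a replicate block and without any of 10 and 14 libraries. Here 15 of the 16 mitosis members were above 0, with a median of 0.08 against 0.01 over all genes. Both interactions use gfi1aa-/-, whose mitosis mean was the lowest (-0.113, against -0.026 to 0.058 in the other genotypes). The members share these libraries, so their signs are not separate observations. orc1, the largest subunit of the origin recognition complex, had 58.4 and 56.7 CPM in gfi1 TM and 56.1 and 60.9 CPM in gfi1aa/1ab DM, against 66.2 and 65.8 CPM in gfi1b/1ab DM and 64.7 and 62.1 CPM in gfi1ab-/-. With gfi1ab present it had 66.4 and 60.9 CPM in gfi1aa/1b DM and 57.3 and 56.6 CPM in gfi1aa-/-, against 53.3 and 56.7 CPM in gfi1b-/- and 58.4 and 57.2 CPM in WT.

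rrm2, the small subunit of ribonucleotide reductase, was counted on ENSDARG00000020711 and ENSDARG00000078069, both named rrm2 by the files. ENSDARG00000020711 had 152 and 202 CPM in gfi1 TM, 136 and 0.897 CPM in gfi1aa/1ab DM, 68.0 and 89.1 CPM in gfi1b/1ab DM, 113 and 45.6 CPM in gfi1ab-/-, 0.517 and 0.943 CPM in gfi1aa/1b DM, 99.7 and 116 CPM in gfi1aa-/-, 173 and 130.1 CPM in gfi1b-/-, and 251 and 376 CPM in WT. ENSDARG00000078069 had 279.8 and 173 CPM in gfi1 TM, 247 and 450.5 CPM in gfi1aa/1ab DM, 305 and 287 CPM in gfi1b/1ab DM, 307.5 and 329 CPM in gfi1ab-/-, 354 and 368 CPM in gfi1aa/1b DM, 215 and 225 CPM in gfi1aa-/-, 228 and 277 CPM in gfi1b-/-, and 118 and 13.8 CPM in WT. In 6 of the 8 genotypes the replicate with less on ENSDARG00000020711 had more on ENSDARG00000078069. The sum of both varied far less than either row, between 315 and 451 CPM in the 16 libraries, a 1.43-fold range.

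The share of rrm2 counts on ENSDARG00000020711 was 0.146% in library 1 of gfi1aa/1b DM (8 of 5479 counts, 95% Wilson interval 0.074% to 0.288%) and 96.5% in library 2 of WT (7899 of 8189 counts, 96.0% to 96.8%). In gfi1aa/1ab DM the replicates had 35.4% (34.2% to 36.6%) and 0.199% (0.122% to 0.323%), far beyond counting error, which is all these intervals cover. The rows gave log2 fold changes as large as -8.69 ± 1.46 (SE, adjusted p = 0.00174) for ENSDARG00000020711 in gfi1aa/1b DM against WT, and ENSDARG00000078069 was called higher in 6 of the 7 mutants against WT, gfi1aa-/- being the exception. With the counts of both rows added together, an alternative chosen after the data were seen, rrm2 was called in 0 of the 15 comparisons, with a lowest adjusted p of 0.0641 in the interaction of gfi1aa with gfi1ab (3 comparisons had an unadjusted p under 0.05, and DESeq2 was not run on the sum). On loss of gfi1ab the sum gave a log2 difference of 0.12 ± 0.04 (adjusted p = 0.0661), near those of the other replication members. Calls on a single rrm2 row are therefore reported as uncertain, and whether reads of near-identical copies or alleles moved between the rows was not tested.

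**Figure D5:**
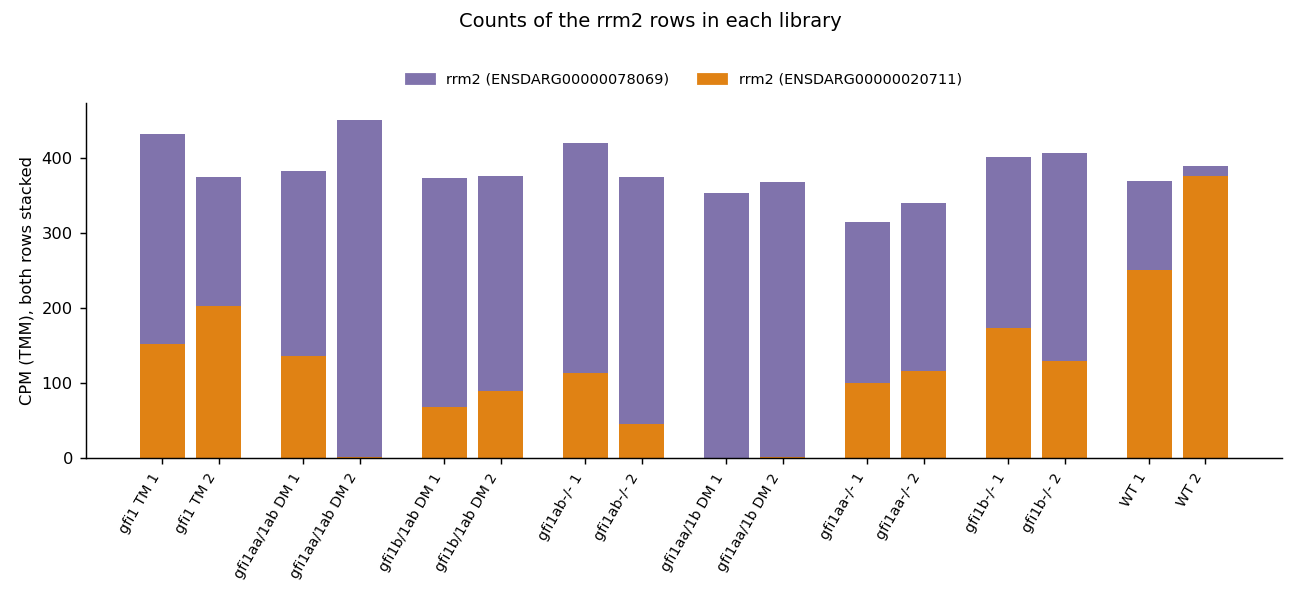
Level (CPM, TMM library sizes) of the rrm2 rows ENSDARG00000020711 (orange) and ENSDARG00000078069 (purple), stacked, in each library by genotype and replicate. The height of the bars stays between 315 and 451 CPM, whereas the orange share runs between 0.146% and 96.5%.

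In a reference annotation of another assembly, in which 39 members could be placed, no member lay within 10 Mb of gfi1aa, chek1 lay within 10 Mb of gfi1b and orc1 within 10 Mb of gfi1ab, and neither was called on that loss. In the interaction of gfi1aa with gfi1ab, orc1 was called. Farther off on the same chromosomes lay cdc20 (gfi1aa), rrm1 (gfi1b), and mcm6 and aurka (gfi1ab), of which mcm6 rose on loss of gfi1ab and the other 3 were not called on the loss named.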

How the data were processed

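The authors deposited raw counts of reads per gene, both strands together, for 16 libraries of whole zebrafish embryos, in the layout of STAR gene counts on GRCz11. Genotypes were taken from the sample labels. Reads on no gene were left out. Of 28451 genes with a count, 19903 passed filterByExpr. Libraries were scaled by TMM and fitted with edgeR 4.0.16 (R 4.3.3, limma 3.58.1): 1 mean per genotype, quasi-likelihood F tests with 8 residual degrees of freedom, Benjamini-Hochberg adjustment over all genes tested and a threshold of 0.05. Every p without another name is from these tests, and the SE of a log2 fold change is its size over the root of F. The fit was tested on simulated counts. Alternatives were RLE size factors, no filter, DESeq2 1.42.0, a replicate block, a threshold of 0.01, 1 mean per side, the 4 libraries compared alone and each library left out. Members and lists were chosen with earlier results of these data known. Values per library are given for at most 12 called members per comparison, by adjusted p, and from other lists the 3 genes with the lowest adjusted p in each direction are named. Promoter motifs were not analysed here.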

Additional observations from a re-analysis of the deposited data

Results flagged for a closer look

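In groups of 8 libraries (with or without a gene), 11 of 164 had a library set apart from the others by Dixon's test, whose critical value for 8 is 0.526. Chance alone sets apart about 1 in 20 groups, a share close to the one seen here. That rate is only a rough guide, because each group pools several genotypes and the groups share libraries. The flagged values below are therefore descriptions. Library 1 of gfi1 TM stood high for mitosis genes: ccnb1 at 267.6 CPM, with the next at 233.6 CPM, both among libraries without gfi1aa and among those without gfi1ab, top2a at 493.2 CPM (next 431.7) and kif11 at 306.1 CPM (next 275.1), the last 2 among libraries without gfi1ab. Library 1 of gfi1ab-/- stood high for tyms, 55.61 CPM (next 50.38), among libraries without gfi1ab, and for ccna2, 217.1 CPM (next 200.6), and cdk1, 168.5 CPM (next 159.1), among libraries with gfi1aa. Library 1 of gfi1aa/1b DM had 66.42 CPM of orc1 (next 60.94) among libraries without gfi1aa, and library 1 of gfi1aa/1ab DM had the lowest plk1 without gfi1ab, 225.2 CPM (next 252.1). Library 2 of WT had 466.6 CPM of mcm4 (next 439.8) and 117 CPM of aurka (next 109.3), the highest with gfi1ab.

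The change on loss of gfi1aa differed with another gfi1 gene for 4 rows by the interaction term in edgeR. With gfi1b, this was bub1 (log2 0.4775, adjusted p = 0.000867). With gfi1ab, these were top2a (0.2396, adjusted p = 0.0387), orc1 (-0.249, adjusted p = 0.0374) and the ENSDARG00000020711 row of rrm2 (5.072, adjusted p = 0.0106). The rrm2 interaction was lost without library 1 of gfi1aa/1ab DM, the replicate whose counts were split between both rows.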

How the results depend on the processing

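No member called in a comparison changed sign under any alternative. Of 67 calls of single members, 61 held with RLE size factors, 59 with no filter, 60 with a replicate block, 57 with DESeq2, 57 without TMM and 26 at a threshold of 0.01. Where these could be run, 7 of 27 held with 1 mean per side, 18 of 36 with the 4 libraries alone and 57 of 61 with rrm2 summed. Replicate numbers did not pair the libraries: correlations of same-numbered deviations ran between -0.0908 and 0.0919. With the replicate block 2 members were called in gfi1 TM against WT (5 without it) and 1 in the interaction of gfi1aa with gfi1ab (3 without it), and no other count moved by over 1.5 times. The cause of each shift below was not tested.

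With 1 mean per side of 8 libraries, the counts for loss of gfi1aa became 0 (replication, 8 as reported) and 0 (mitosis, 2), for gfi1b 0 (replication, 1) and for gfi1ab 7 (replication, 13) and 0 (mitosis, 3). At a threshold of 0.01 they were 0 and 1 for gfi1aa, 0 for gfi1b (replication) and 1 for gfi1ab (mitosis). Against WT they were 1 in gfi1aa-/- (2 as reported), 0 in gfi1b-/- (3), 3 in gfi1ab-/- (7), 2 in gfi1aa/1b DM (4), 2 in gfi1b/1ab DM (6) and 0 in gfi1 TM (5). They were 1 in gfi1aa/1b DM against gfi1b-/- (2), 2 in gfi1aa/1ab DM against gfi1ab-/- (4) and 0 for the interaction with gfi1ab (3). With no filter there were 3 replication calls and 1 mitosis call for gfi1b, 5 in gfi1aa-/-, 5 in gfi1aa/1ab DM (3 as reported), 2 in gfi1 TM against gfi1b/1ab DM (0), and 5 and 6 for the interactions with gfi1b (1) and gfi1ab. With the 4 libraries alone there were 4 in gfi1aa-/-, 2 in gfi1ab-/-, 0 in gfi1 TM, 12 in gfi1aa/1b DM against gfi1b-/- and 2 in gfi1aa/1ab DM against gfi1ab-/-. Calls over all genes moved with these settings too. With the 4 libraries alone, gfi1aa/1b DM against gfi1b-/- had 1784 genes higher and 1482 lower, in place of 482 and 448. For gfi1 TM against WT they were 79 higher and 71 lower, in place of 1426 and 1184. With no filter, gfi1 TM against gfi1b/1ab DM had 520 higher and 618 lower, in place of 209 and 181. RLE and DESeq2 each gave 1 mitosis call for gfi1b (0 as reported), 1 for gfi1ab and 2 in gfi1 TM. Of the alternatives chosen after the data were seen, no TMM gave 1 mitosis call for gfi1b, 5 in gfi1aa/1ab DM, 2 in gfi1 TM and 4 in gfi1aa/1b DM against gfi1b-/-, and summed rrm2 rows gave 2 in gfi1aa/1b DM against WT and 1 against gfi1b-/-.

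With 1 library left out, the lone replicate taken to vary like other genotypes, the counts were 2 to 9 (replication) and 1 to 2 (mitosis) for gfi1aa, 0 to 2 and 0 to 2 for gfi1b, and 10 to 15 and 1 to 6 for gfi1ab. Against WT they were 1 to 4 in gfi1aa-/-, 0 to 4 in gfi1b-/-, 2 to 8 in gfi1ab-/-, 1 to 5 in gfi1aa/1b DM, 2 to 11 in gfi1aa/1ab DM, 1 to 8 in gfi1b/1ab DM and 0 to 12 in gfi1 TM. They were 0 to 4 in gfi1aa/1b DM against gfi1b-/-, 1 to 8 in gfi1aa/1ab DM against gfi1ab-/-, 0 to 4 in gfi1 TM against gfi1b/1ab DM, and 1 to 3 and 0 to 9 for the interactions with gfi1b and gfi1ab. With 2 libraries per genotype, changes of a few percent in one genotype could go uncalled, and the smallest detectable change was not measured.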

Other observations

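Other symbols that stand on 2 rows were examined for the split seen in rrm2. Of 474 such symbols, 137 had at least 100 counts over both rows in every library. The share of counts on the first row ranged over libraries by less than 10 percentage points for 80 of them and by more than 50 for 6. rrm2 had the widest range, 96.3 points, followed by taco1 with 89.1 points, and the others were znf1118, rnps1, actc1a and znf1109, which were named after their values were seen. These ranges are descriptions, with no test.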
